A study of Homo sapiens with 8 samples.

Results

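The mature miRNAs of miR-28, miR-708 and miR-151a were followed in small RNA libraries of H1299/EV and H1299/R273H cells. Each hairpin gives a 5p and a 3p arm, so there are 6 mature miRNAs among the 945 listed in the deposited tables. They were chosen around miR-708, for its near absence from R273H cells, so the values of miR-708 in R273H against EV are given as a description with no test, with and without etoposide. Untreated values of its relatives are described in the same way. The relatives were tested between the etoposide-treated lines, in libraries of which earlier results were known.

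A miRNA is cut from a hairpin, and 1 of its arms usually enters the Argonaute complex, where bases 2 to 8 (the seed) pair with target mRNAs. The hairpins of miR-28, miR-708 and miR-151a are grouped as 1 family by sequence, and each lies in an intron of a protein-coding gene, from whose transcript it can be cut. MIR28 is in LPP, which encodes a protein of cell adhesion sites, MIR708 is in TENM4, which encodes a teneurin of the cell surface, and MIR151A is in PTK2, which encodes focal adhesion kinase. miR-28-5p and miR-708-5p share a seed and so can pair with the same sites.

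H1299 is a long-established line from a lymph node deposit of a non-small cell lung cancer, and it makes no p53. The EV cells carry an empty vector and stayed p53 null. The R273H cells stably express mutant p53 R273H from a pCMV-Neo-Bam plasmid and were grown from picked G418-resistant colonies, while the EV cells had been made in another laboratory, so the mutant protein and other differences between the lines cannot be told apart. Both lines were left untreated or were given etoposide, a topoisomerase II inhibitor that breaks DNA, for 24 h, at a dose stated as 10 µM in one label and 10 mM in another. Each of the 4 groups has 2 libraries. The paper, which reports the untreated libraries, calls them biological replicates, but the labels do not say that the libraries came from separate cultures. The p-values therefore measure the spread between libraries, part of which may be technical.

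The libraries held 234545 to 579367 reads on annotated features, of which 90.8% to 98.2% fell on miRNAs. Counts that could be set side by side over all 8 libraries were made by dividing the recovered reads by a size factor from the 296 miRNAs with a read in every library, and are called normalised counts here. A miRNA with 3 or fewer reads in both libraries of a group was treated as not distinguishable from 0. Marker lists held 5 blood cell, 5 epithelial, 3 muscle and 1 liver miRNAs. In reads not scaled to depth, R273H untreated replicate 2 had the most of muscle (24), blood (16) and epithelial markers (15). The liver marker had the most, 10 reads, in EV untreated replicate 1. In the other libraries the muscle markers summed to at most 3 reads, the epithelial ones to 7 and the blood ones to 15, and 2 of the blood markers, miR-142-5p and miR-150-5p, were not listed. The blood marker miR-451a had 12 reads among 213007 miRNA reads in EV etoposide replicate 1. In R273H untreated replicate 2 it had 14 among 406721. The liver marker miR-122-5p had 7 reads in EV etoposide replicate 1, against 10 among 536991 in EV untreated replicate 1. Relative to depth both were thus higher in EV etoposide replicate 1, while the muscle and epithelial lists stayed highest in R273H untreated replicate 2. Without R273H untreated replicate 2, miR-708-5p was at least 19.4-fold lower in untreated R273H than in untreated EV. For miR-151a-3p the limma log2 fold change of this contrast was then -1.95, against -1.45 with all its libraries. The fold limit takes the R273H libraries at 3 reads and does not cover the spread between libraries.

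The mature sequences below carry the relation between the hairpins, with the seed in capitals (5′ to 3′, RefSeq, GRCh38.p14 table). They are the arm that was lost, its partner from the same hairpin, and the arm of miR-28 that resembles this partner.
hsa-miR-708-5p: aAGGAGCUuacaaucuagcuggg
hsa-miR-708-3p: cAACUAGAcugugagcuucuag
hsa-miR-28-3p: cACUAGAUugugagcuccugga
miR-28-5p, miR-151a-5p and miR-151a-3p are named only.

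The seeds of miR-708-3p and miR-28-3p share the stretch ACUAGA, shifted by 1 base, and each holds 1 further base. With base 1 of miR-28-3p set on base 2 of miR-708-3p, 17 of 21 bases were identical (81.0%), and the substitutions were C1A, U8C, C17U and G20A, counted from the 5′ end of miR-28-3p. Among the 2370 mature sequences of the RefSeq table, which has no entry for miR-28-5p, the seed of miR-708-5p was found again in miR-3139, which is not listed in the deposited tables. In GRCh37, the MIR708 hairpin lies at chr11:79113066-79113153 on the minus strand, in intron 1 of TENM4, with miR-708-5p at chr11:79113121-79113143 and miR-708-3p at chr11:79113076-79113097. The MIR28 hairpin lies at chr3:188406569-188406654 on the plus strand, in intron 7 of LPP, with miR-28-3p at chr3:188406622-188406643.

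miR-708-5p, the dominant arm of its hairpin in EV cells, was nearly absent from R273H, the trait for which it was chosen. Its normalised counts were 57.9 and 65.4 in untreated EV (74 and 37 reads) and 70.1 and 34.2 in etoposide-treated EV (60 and 29 reads). In R273H there was 1 read in each untreated library, and there were 0 and 1 reads in the treated libraries. All 4 EV libraries therefore lay far above all 4 R273H libraries, with 200 reads among 1362057 miRNA reads against 3 among 1714089. The EV means were 61.7 ± 5.3 untreated and 52.2 ± 25.4 with etoposide (SD, n = 2).

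With the R273H libraries at the floor of 3 reads per library, miR-708-5p was at least 20.5-fold lower in untreated R273H and at least 27.3-fold lower in treated R273H. With 1 library left out the first bound lay between 19.3 and 21.7. The second was 17.9 without EV etoposide replicate 1 and 36.7 without EV etoposide replicate 2. No test is given, because miR-708-5p was chosen for this difference and passed the filter on low counts only through the EV libraries.

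miR-708-3p, the other arm of the same hairpin, was rare everywhere. The untreated EV libraries held 2 and 0 reads and the treated ones 1 and 0. The R273H libraries held 0 and 4 reads untreated and 2 and 5 with etoposide. Summed over the libraries there were 3 reads in EV and 11 in R273H, at or near the floor in each group. It lay below the filter of a mean of 3 reads, so it was not tested and no fold is given. Whether reads of the similar miR-28-3p were counted on it was not tested.

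**Figure D1:**
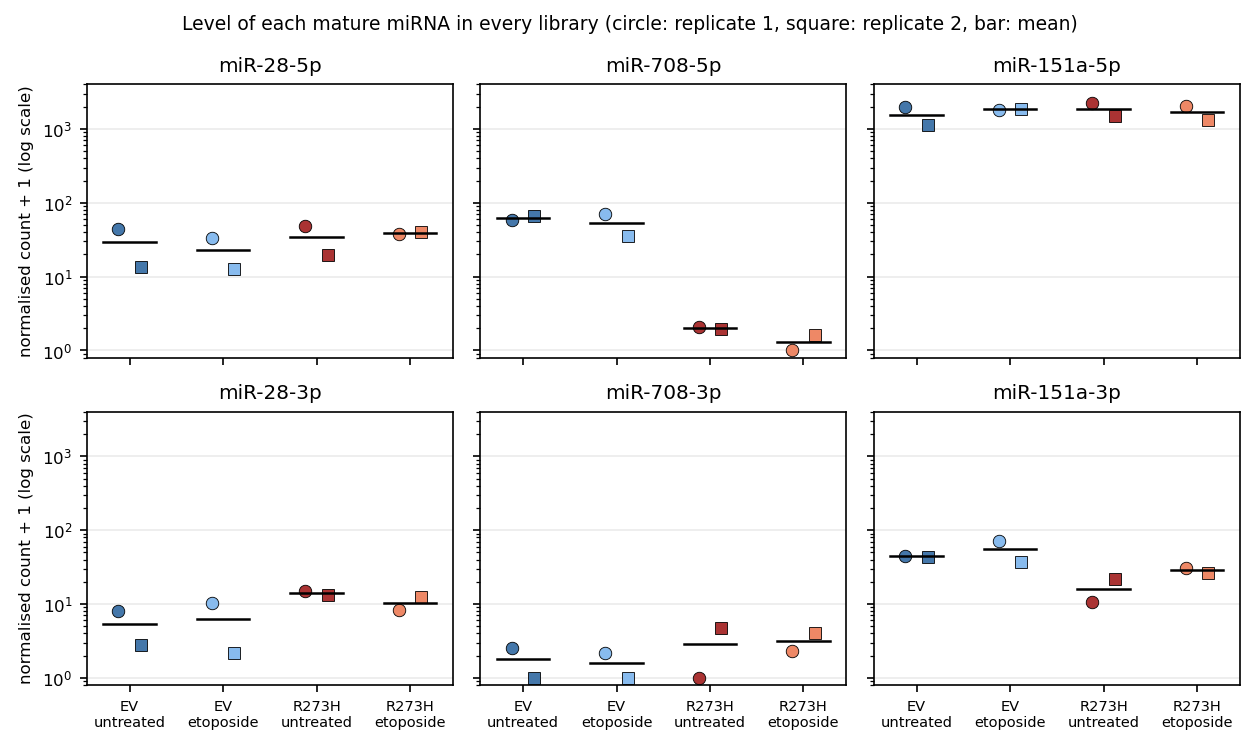
Normalised count plus 1 (log scale) of the 6 mature miRNAs in each of the 8 libraries, by group, with circles for replicate 1, squares for replicate 2 and bars for the mean of the 2 libraries. miR-708-5p lay between 34.2 and 70.1 in EV and at 1.06 or less in R273H, while miR-28-5p and miR-151a-5p overlapped between the lines when untreated.

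miR-28-5p, which shares the seed of miR-708-5p, stayed present in both lines. Its normalised counts were 43.8 and 12.4 in untreated EV (56 and 7 reads) and 47.7 and 18.9 in untreated R273H (45 and 20 reads). These libraries overlapped, and the replicates of a line differed by 3.54-fold in EV and 2.52-fold in R273H, which is more than the 1.18-fold between the means of the lines. With etoposide it had 32.7 and 11.8 in EV and 36.5 and 38.9 in R273H, so both R273H libraries were above both EV libraries.

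The treated difference of miR-28-5p was within the error (edgeR log2 fold change 0.69, standard error 0.46, adjusted p = 0.296). Without EV etoposide replicate 1 it was 1.65 with an adjusted p of 0.0274 (edgeR), and without EV etoposide replicate 2 it was 0.11, so the EV library that is kept decides the call. With upper-quartile normalization it met the criteria of the study used below (1.03, adjusted p = 0.0785, edgeR). That setting also moved the median log2 fold change of all miRNAs tested, from 0.05 to 0.37.

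miR-28-3p, the less abundant arm, had 9 and 1 reads in untreated EV and 13 and 13 in untreated R273H, or 7.05 and 1.77 against 13.8 and 12.3 normalised counts. The untreated R273H libraries were thus above both EV libraries, by 2.96-fold between the means. With etoposide it had 9.35 and 1.18 in EV and 7.31 and 11.6 in R273H, and these overlapped. Their difference did not pass the test (edgeR log2 fold change 0.77, standard error 0.70, adjusted p = 0.495). It was 2.88 without EV etoposide replicate 1 (adjusted p = 0.0578, edgeR) and -0.07 without EV etoposide replicate 2.

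miR-151a-5p was the abundant member, ranked 23 to 37 among the miRNAs of each library. Its normalised counts were 1959 and 1144 in untreated EV and 2238 and 1504 in untreated R273H, which overlapped. They were 1817 and 1879 in treated EV and 2066 and 1341 in treated R273H, and these overlapped as well. The treated log2 fold change was -0.18 (edgeR, standard error 0.35, adjusted p = 0.782). It rests on 6298 reads in EV and 9014 in R273H, and the 2 libraries of a group differed by up to 1.71-fold.

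miR-151a-3p was lower in R273H than in EV. Its normalised counts were 43.8 and 42.4 in untreated EV and 9.54 and 20.8 in untreated R273H, a 2.84-fold difference of the means, 43.1 ± 1.0 and 15.2 ± 8.0 (SD, n = 2). With etoposide they were 71.3 and 36.6 in EV and 29.9 and 25.6 in R273H, 1.94-fold lower in R273H. The EV and R273H libraries did not overlap in either condition. Of all miRNAs tested, 28.3% lay wholly lower in untreated R273H and 25.1% in treated R273H. The share lower in both conditions was not computed.

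In the treated libraries the log2 fold change of miR-151a-3p was -1.02 (edgeR, standard error 0.42, unadjusted p = 0.0156, adjusted p = 0.0640), which met the criteria of the study (unadjusted p under 0.05 and at least 2-fold) but not an adjusted p under 0.05. Without EV etoposide replicate 1 it was -0.42 (edgeR, adjusted p = 0.579), and without EV etoposide replicate 2 it was -1.45 (adjusted p = 0.0135). Without R273H etoposide replicate 1 or 2 it was -1.08 and -0.95, no longer with an unadjusted p under 0.05. The call was also lost with upper-quartile normalization, equal miRNA totals, another filter, DESeq2 or limma, where the value lay between -0.97 and -0.68. Over all alternatives the adjusted p lay between 0.0135 and 0.579.

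Leaving miR-708 aside, 1 of the 4 relatives tested between the treated lines met both criteria, miR-151a-3p, which was lower in R273H, while 15.3% of the 334 miRNAs met them in that direction. The median log2 fold change was 0.26 over the 4 relatives and 0.05 over all miRNAs tested. At an adjusted p under 0.05 there were 0 relatives with edgeR (1 at an unadjusted p), with DESeq2 and with limma (0 at an unadjusted p in both), against 22.5% of all miRNAs tested with edgeR. Libraries that do not overlap are common at this group size. In the treated contrast 25.1% of the miRNAs lay wholly lower and 29.9% wholly higher in R273H. In the untreated contrast, which chose the members, the shares were 28.3% and 32.6%, and 10.9% met both criteria as lower.

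**Figure D2:**
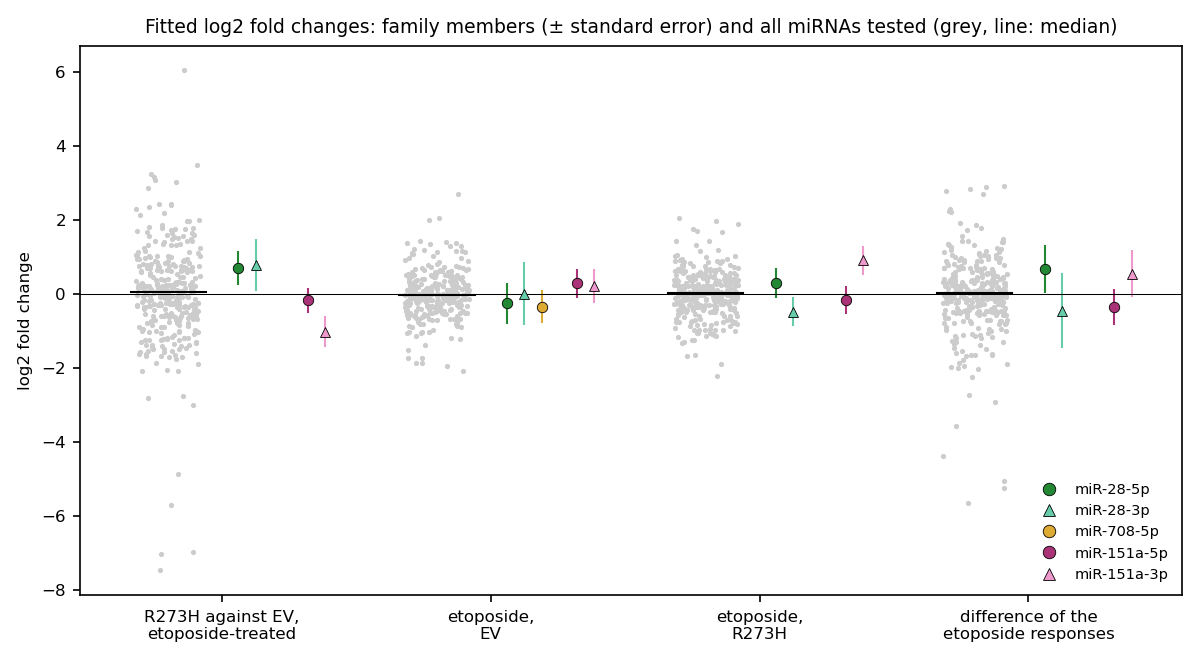
Fitted log2 fold changes of the tested members (points with standard error) beside all miRNAs tested (grey points, with the median as a line) for 4 comparisons, R273H against EV in treated cells, etoposide in EV, etoposide in R273H, and the difference of both responses. miR-708-5p is shown for etoposide in EV alone, and among the relatives miR-151a-3p was farthest from 0 in the first comparison, at -1.02.

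Because miR-28-5p and miR-708-5p have the same seed, their counts were also summed. miR-708-5p made up 56.9% and 84.1% of the reads of this pair in untreated EV and 68.2% and 74.4% in treated EV. In R273H it made up 2.17% and 4.76% untreated and 0% and 1.54% with etoposide. These shares are a description, since miR-708-5p was chosen for its low level in R273H.

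The summed level of the pair was 102 and 77.8 normalised counts in untreated EV and 48.8 and 19.9 in untreated R273H. With etoposide it was 103 and 46.0 in EV and 36.5 and 39.6 in R273H. Each R273H library was below both EV libraries of the same condition, and each sum contains the member that was chosen for its low level in R273H.

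**Figure D3:**
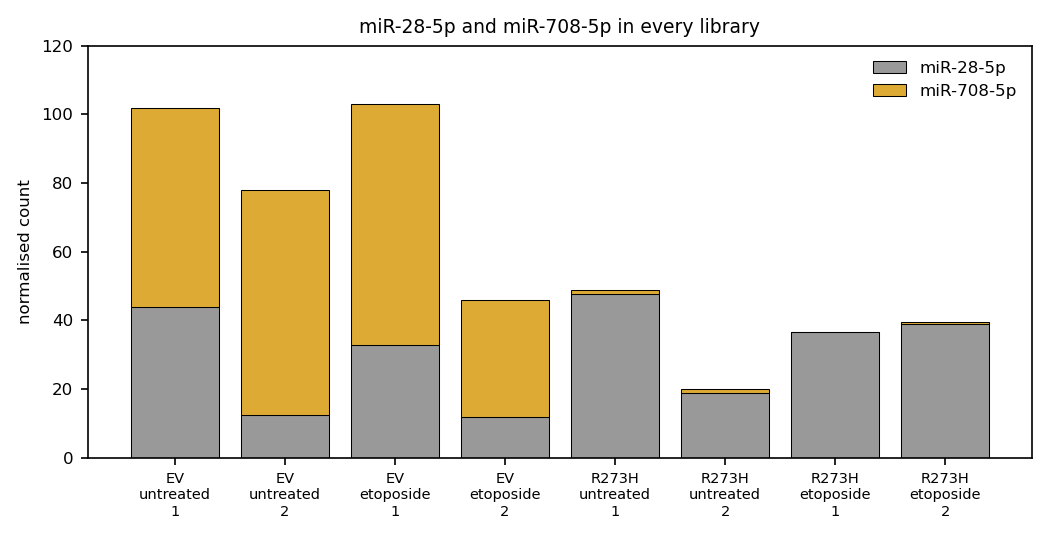
Stacked normalised counts of miR-28-5p (grey) and miR-708-5p (yellow) in each of the 8 libraries. miR-708-5p filled 56.9% to 84.1% of the reads of the pair in EV and at most 4.76% in R273H, while the grey bars reached 11.8 to 43.8 in EV and 18.9 to 47.7 in R273H.

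The use of the arms can be compared without any scaling between libraries, since both arms come from 1 library. For miR-151a the 5p arm took 97.8%, 96.4%, 96.2% and 98.1% of the reads of both arms in the EV libraries (untreated 1 and 2, then treated 1 and 2). In R273H it took 99.6%, 98.6%, 98.6% and 98.1% in the same order. Over the summed reads the shares were 97.3% (95% Wilson interval 96.9 to 97.7) in EV and 98.7% (98.5 to 98.9) in R273H, and these intervals cover counting error and not the spread between libraries. The R273H libraries lay above the EV libraries, but the lowest of R273H and the highest of EV were both at 98.1%, well within their intervals. The comparison of the lines is a description, since the untreated reads took part in choosing the members.

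For miR-28 the 5p share was lower than for miR-151a in every library, at 86.2%, 87.5%, 77.8% and 90.9% in EV and 77.6%, 60.6%, 83.3% and 77.1% in R273H. The summed shares were 84.2% (76.6 to 89.6) and 76.7% (70.9 to 81.6), with overlapping intervals. miR-708 was almost all 5p in EV, with 200 of 203 reads (98.5%, 95.7 to 99.5). In R273H the 5p arm had 1 of 1 and 1 of 5 reads untreated and 0 of 2 and 1 of 6 with etoposide. These reads are few and come from a hairpin chosen for the loss of its 5p arm, so no share is drawn from them.

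**Figure D4:**
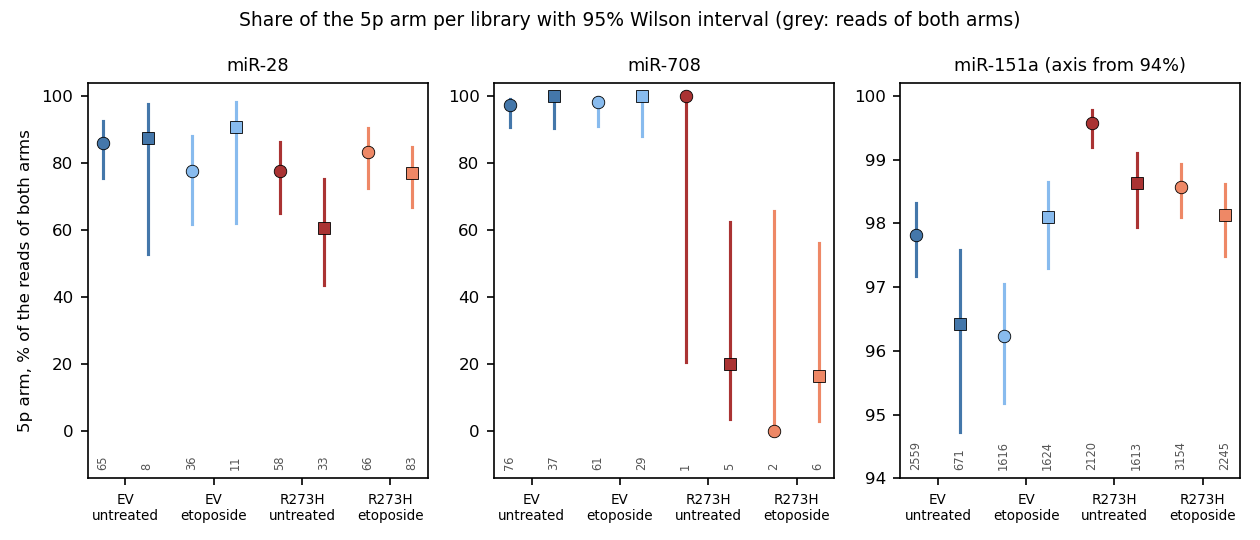
Share of the 5p arm among the reads of both arms of each hairpin, per library, with 95% Wilson intervals and the reads of both arms in grey; the axis of miR-151a starts at 94%. For miR-708 the EV libraries lay between 97.4% and 100% on 29 to 76 reads, while the R273H libraries rest on 1 to 6 reads.

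Etoposide left the members within their error in EV cells. Of the 5 tested, 0 met both criteria, against 6.76% of 296 miRNAs. The log2 fold change was -0.35 for miR-708-5p (limma, standard error 0.44, adjusted p = 0.932) and -0.26 for miR-28-5p (standard error 0.55, adjusted p = 0.993). It was 0.28 for miR-151a-5p (standard error 0.39) and 0.21 for miR-151a-3p (standard error 0.45). For miR-28-3p it was 0.00 with a standard error of 0.85, so a change of 2-fold in either direction could not be seen. For the other members tested, a 2-fold change in the direction of the estimate also lay within 2 standard errors of it. Treated and untreated EV libraries overlapped for each of the 6 members, while 14.5% of the miRNAs tested lay wholly lower and 19.3% wholly higher with etoposide.

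In R273H cells 4 members passed the filter and 0 met both criteria, against 6.16% of 341 miRNAs. miR-151a-3p came nearest, from 9.54 and 20.8 to 29.9 and 25.6 normalised counts, with both treated libraries above both untreated ones. Its log2 fold change was 0.90 (limma, standard error 0.39, unadjusted p = 0.0386, adjusted p = 0.495), which is under 2-fold, and it was 0.38 without R273H untreated replicate 1. It met both criteria without R273H untreated replicate 2 (1.43, adjusted p = 0.217, limma) and with equal miRNA totals (1.58, adjusted p = 0.319), where the median of all miRNAs was also higher, at 0.70. Over its alternatives the adjusted p lay between 0.217 and 0.999.

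The other members of R273H moved less. miR-28-3p went from 13.8 and 12.3 to 7.31 and 11.6 (limma log2 fold change -0.49, standard error 0.39, adjusted p = 0.709), with both treated libraries below both untreated ones. Of all miRNAs tested here, 18.2% lay wholly lower and 22% wholly higher with etoposide. miR-28-5p had 0.29 (standard error 0.40) and miR-151a-5p -0.17 (standard error 0.38). miR-708-5p stayed at 0 or 1 read and could not be followed. No miRNA had an adjusted p under 0.05 in this comparison with limma (31 had an unadjusted one). DESeq2 gave 1, and limma gave 2 at a mean of at least 10, 2 with equal miRNA totals and 9 without R273H etoposide replicate 1.

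The difference between the responses of the lines was tested directly on all 8 libraries. None of the 4 relatives met the criteria, against 3.59% of 334 miRNAs, and each had an adjusted p of 1.00 (edgeR). The estimates, R273H minus EV, were 0.67 for miR-28-5p (standard error 0.65), 0.54 for miR-151a-3p (standard error 0.63) and -0.36 for miR-151a-5p (standard error 0.49). For miR-28-5p the value met both criteria without EV etoposide replicate 1 (1.64, adjusted p = 0.390, edgeR) and without R273H untreated replicate 1 (1.44, adjusted p = 0.951), and it was -0.63 without EV untreated replicate 1. The response of miR-708-5p in R273H could not be measured. No miRNA had an adjusted p under 0.05 with edgeR (12 had an unadjusted one) or with DESeq2 (5), and without R273H untreated replicate 2 there was 1.

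The mean 5p share of miR-28 went from 86.8% to 84.3% with etoposide in EV and from 69.1% to 80.2% in R273H, in opposite directions. Averaged over the lines the change was 4.32 percentage points (two-sided exact permutation p = 0.556), and it lay between 0.0756 and 8.57 with 1 library left out, the lowest without R273H untreated replicate 2 and the highest without R273H untreated replicate 1. The 5p share of miR-151a went from 97.1% to 97.2% in EV and from 99.1% to 98.4% in R273H, on average by -0.357 points (exact permutation p = 0.611). The smallest p that the 36 arrangements allow is 0.0556, so this test cannot pass 0.05 and says nothing of whether the shares changed.

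Few miRNAs encoded near MIR708 could be measured. A position was at hand for 632 of the 945 listed miRNAs. Of these, 5 lay within 10 Mb of MIR708, and 2 of the 5 passed the filter on low counts between the treated lines. miR-139-5p, from an intron of PDE2A, had 2 and 4 reads in treated EV and 19 and 21 in treated R273H. It passed the filter only through the R273H libraries, so these reads are a description and no test is given. miR-326 had 14 and 5 reads in treated EV against 5 and 11 in treated R273H. It was not called (edgeR, log2 fold change -1.18 with a standard error of 0.69, adjusted p = 0.224). Of the 4 listed miRNAs within 10 Mb of MIR28, 1 was tested and 0 were called. Of all 334 miRNAs tested, 85 were called between the treated lines, so 1 test at each locus cannot tell it from the rest.

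By the correlation of log2(normalised count + 1) over the 8 libraries, among 236 miRNAs with a mean of at least 10 reads, the patterns most like that of miR-708-5p were those of miR-378a-3p (Pearson's r 0.990), miR-378a-5p (0.983) and miR-625-3p (0.962). miR-378a-3p had 728 to 1100 normalised counts in the EV libraries and 159 to 283 in R273H. Within the family, miR-151a-3p came nearest to miR-708-5p (0.746), and miR-28-5p did not follow it (-0.387). The nearest to miR-28-5p was miR-455-3p (0.902), with miR-28-3p at 0.796, and the nearest to miR-151a-5p was miR-551b-3p (0.828). These are descriptions, as the 8 points are 4 libraries of each of 2 lines and share their depth.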

How the data were processed

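Small RNA of 8 libraries was sequenced on an Ion PGM instrument. The authors trimmed reads with the FASTX-toolkit, mapped them with SHRiMP against miRBase, tRNA, rRNA and adapter sequences, counted reads per feature and normalised with DESeq. By the paper, reads left unaligned were mapped to the human genome with Novoalign, and both mappings entered the miRNA counts. The deposited signal gives reads over a size factor of each library, in 3 tables normalised separately. All values (100%, tolerance 0.01 in the deposited unit) were whole multiples of 1 read, so reads were recovered. The authors' fold changes and p-values were not used.

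Etoposide was tested within each table with limma 3.58.1 on log2(normalised count + 1), mean at least 3, which understates the changes of rare miRNAs. The treated lines and the difference of responses were tested with edgeR 4.0.16 on recovered reads of all 8 libraries (TMM, mean at least 3). Calls needed an unadjusted p under 0.05 and 2-fold. DESeq2 1.42.0, R 4.3.3, Python 3.11.15 and scipy 1.17.1 were used. Positions are from GENCODE 44 lifted to GRCh37. Scripts were tested on simulated data. The members, lists and rules (seed, 10 Mb neighbours, 3 nearest patterns) were chosen with earlier results of these data known.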

Additional observations from a re-analysis of the deposited data

How the results depend on the processing

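Equal miRNA totals and the exchanged replicate numbers were chosen after the data were seen. Equal totals moved the median log2 fold change of all miRNAs from -0.03 to 0.38 for etoposide in EV, from 0.02 to 0.70 in R273H, from 0.05 to 0.35 between the treated lines and from 0.01 to 0.26 for the difference, a shift that falls nearly alike on all miRNAs of a comparison. Upper-quartile normalization moved the median between the treated lines from 0.05 to 0.37. Filters change how many miRNAs are tested, and for the other changes the cause was not tested.

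Etoposide in EV gave 20 calls (7 higher, 13 lower), against 13 with a pseudocount of 5, 10 at a mean of at least 10, 12 with equal totals (10 higher, 2 lower), 12 with DESeq2 and 10 to 19 with 1 library left out. In R273H 21 calls (10 and 11) became 11, 10, 36 (36 and 0) and 10 in that order, 33 without a filter and 9 to 32 with 1 library left out. The difference gave 12 calls, and 5 with equal totals, 32 without any filter, 6 at a mean of at least 10, 5 with DESeq2 and 8 to 28 with 1 library left out. The treated lines gave 85 (34 higher, 51 lower), and 99 (68 and 31) with upper-quartile normalization, 59 (39 and 20) with equal totals and 71 to 101 with 1 library left out. The untreated lines gave 83, and 49 to 77 with 1 library left out.

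Directions that turned belong to members that did not pass the test. With equal totals, etoposide in EV gave 0.15 for miR-28-5p and 0.0763 for miR-708-5p, and in R273H 0.18 for miR-28-3p and 0.54 for miR-151a-5p. edgeR gave -0.0045 for miR-28-3p in EV. miR-151a-5p between the treated lines was 0.15 with upper quartiles and 0.0906 with equal totals. With 1 library left out, etoposide in EV ranged from -1.10 to 0.58 for miR-28-5p, -1.06 to 1.06 for miR-28-3p, -0.84 to 0.14 for miR-708-5p, -0.0824 to 0.64 for miR-151a-5p and -0.24 to 0.67 for miR-151a-3p. In R273H miR-28-5p ranged from -0.36 to 0.95 and miR-151a-5p from -0.49 to 0.16. Between the treated lines miR-28-3p ranged from -0.0667 to 2.88 and miR-151a-5p from -0.47 to 0.0699. The difference ranged from -0.63 to 1.64 for miR-28-5p and from -1.95 to 1.67 for miR-28-3p. The etoposide change of the miR-151a 5p share ranged from -0.823 to 0.110 points. The treated miR-151a-3p value was -0.68 with upper quartiles, -0.81 with equal totals, -0.96 with DESeq2 and -0.86 with limma, each with an unadjusted p above 0.05.

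Same-numbered libraries did not deviate together (r from -0.234 to 0.137 over 334 miRNAs). The lowest r was between the treated EV and treated R273H libraries, where opposite numbers deviated alike. Whether same-numbered libraries shared a culture or a run was not tested. With the replicate number as a block the calls were 75 for the untreated lines, 16 and 17 for etoposide in EV and R273H, 79 for the treated lines and 11 for the difference, and miR-151a-3p in R273H had an unadjusted p of 0.0509 (limma). With the numbers of the treated R273H libraries exchanged there were 85 calls for the treated lines.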
